A study of Mus musculus with 2 samples.

Results

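Among accessible regions of mouse urinary bladder, 1814 distal regions held an unusually dense set of DNase footprints in both libraries of the series. A distal region here is a DNase peak under 400 bp wide on chromosomes 1 to 19 whose midpoint lay over 1 kb from every protein-coding transcription start site (TSS). A member peak was overlapped by 4 or more footprints of its own library and overlapped, by 1 bp or more, a peak of the other library that met the same conditions there. The rule kept 1816 peaks of 82472 in replicate 1 and 1814 of 109240 in replicate 2, and joining the overlapping ones gave the 1814 member regions. Members were chosen by their footprint counts in both libraries, so those counts, and the peak signal that goes with them, are given as a description.

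The assay was DNase-seq on bladder tissue of female B6CASTF1/J mice, 18 to 20 months old, which descend from C57BL/6 and CAST parents. The 2 libraries form 1 group and are labelled biological replicates 1 and 2, from separate tissue samples under 1 donor record. Whether those samples came from 1 animal or several is not stated, so the spread between the libraries may be technical. There is no other genotype, treatment or age, and no test between conditions was possible. As a check of the tissue, 31 of 32 urothelium marker genes in replicate 1 and 30 in replicate 2 had a peak midpoint within 1 kb of a TSS, as did 27 and 21 of 30 smooth muscle genes and 28 and 27 of 30 fibroblast genes. Markers of hepatocytes, absent from bladder, had 4 of 16 in each library, and macrophage markers 5 and 6 of 16, with none at Ptprc, the pan-leukocyte gene. Endothelium markers had 11 and 12 of 20, with none at Pecam1 or Vwf in either library. Pericyte markers had 7 and 8 of 10, and mesothelium markers 4 of 8 in each library. Skeletal muscle markers had 7 of 16, B and T cell markers 8 of 20 and glia and neuron markers 8 of 15 in each library. Of all shared distal narrow peaks, 82.8% and 84.5% had a nearest gene with such a peak, so the check is a coarse one.

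DNase I cuts open chromatin, and a protein bound to the DNA shields a short stretch from it, which leaves a footprint: a dip in the cuts inside an accessible region. Distal elements of this kind include enhancers, insulators bound by CTCF and promoters of transcripts that code for no protein. The bladder wall is lined by urothelium, a stratified epithelium that keeps urine from the tissue, over connective tissue with fibroblasts and vessels and layers of smooth muscle. A bulk tissue library mixes the footprints of all these cells, and a weak signal from every cell cannot be told apart from a strong one in a few.

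The reference sequence of 2 densely footprinted members is shown first, because they carry SP, NRF1 or CREB motifs, in which members differed from sparsely footprinted peaks. All sequences are from GRCm38.p6, the assembly behind mm10, on the plus strand, from 5′ to 3′. They are the C57BL/6J reference, so alleles from CAST are not represented. Capitals mark the bases that lay inside footprints of both libraries. Positions in introns, in exons or between genes refer to protein-coding genes only. The region nearest to Map1lc3b, which encodes a protein of the autophagosome membrane, lies at chr8:121585441-121585720 in an intron of the gene model Gm20388. It held 8 footprints in each library, and its capitals touch a match to the SP consensus GGGCGGG, one to the NFY consensus CCAAT and one to the BACH-NRF2 consensus TGACNNNGC.
Map1lc3b region: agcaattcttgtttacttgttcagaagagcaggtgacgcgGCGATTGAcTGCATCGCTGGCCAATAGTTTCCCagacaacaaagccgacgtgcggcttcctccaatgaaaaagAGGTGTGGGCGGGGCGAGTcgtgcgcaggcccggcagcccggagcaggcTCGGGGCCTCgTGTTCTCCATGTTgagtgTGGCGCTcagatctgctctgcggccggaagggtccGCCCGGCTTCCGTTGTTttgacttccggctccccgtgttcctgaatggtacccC
The region nearest to Nacc2 lies between protein-coding genes at chr2:26140461-26140700, 60 bp from a TSS of a transcript that is not protein-coding. It is the strongest member with an NRF1 match among those of 300 bp or less without repeats, copies or exons, and was chosen after its values were seen. Its 4 capital stretches touch matches to NRF1, a factor of genes for mitochondria and growth, to the CREB consensus TGACGTCA and to CCAAT.
Nacc2 region: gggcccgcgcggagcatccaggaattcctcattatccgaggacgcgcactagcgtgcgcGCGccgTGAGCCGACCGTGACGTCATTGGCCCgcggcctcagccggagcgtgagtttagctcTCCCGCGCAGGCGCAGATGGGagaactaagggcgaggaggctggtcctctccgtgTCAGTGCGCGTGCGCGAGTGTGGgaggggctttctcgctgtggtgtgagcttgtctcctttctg

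The next 5 sequences are members picked by marker gene lists for cell types of the bladder wall and for blood cells. The nearest gene does not show in which cells a region was open. Each is the strongest member, up to 300 bp, whose nearest protein-coding TSS belongs to the list of that cell type. Pparg encodes a nuclear receptor that acts in urothelial differentiation, and its region at chr6:115463001-115463260 lies over a coding exon of the gene. Tpm2 encodes a tropomyosin of muscle, and its region at chr4:43520021-43520240 is intronic, 462 bp from a TSS of a transcript that is not protein-coding. Col1a1 encodes a chain of type I collagen, the main product of fibroblasts, and its region at chr11:94928841-94929140 lies between genes. Fli1 encodes an ETS factor of endothelial and blood cells, with its region at chr9:32590021-32590200 between genes. Ebf1 encodes a factor of B cells that is also found in stromal cells, and the region at chr11:45201121-45201340, between genes, is 583924 bp from its TSS.
Pparg region: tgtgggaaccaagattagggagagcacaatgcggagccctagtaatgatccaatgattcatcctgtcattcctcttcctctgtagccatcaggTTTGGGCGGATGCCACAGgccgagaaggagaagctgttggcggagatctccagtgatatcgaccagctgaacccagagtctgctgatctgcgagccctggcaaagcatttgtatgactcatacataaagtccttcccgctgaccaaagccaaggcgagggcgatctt
Tpm2 region: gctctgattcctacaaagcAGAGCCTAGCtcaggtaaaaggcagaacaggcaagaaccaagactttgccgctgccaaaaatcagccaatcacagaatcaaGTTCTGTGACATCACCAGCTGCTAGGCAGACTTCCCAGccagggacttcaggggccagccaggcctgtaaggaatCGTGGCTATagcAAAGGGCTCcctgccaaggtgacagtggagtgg
Col1a1 region: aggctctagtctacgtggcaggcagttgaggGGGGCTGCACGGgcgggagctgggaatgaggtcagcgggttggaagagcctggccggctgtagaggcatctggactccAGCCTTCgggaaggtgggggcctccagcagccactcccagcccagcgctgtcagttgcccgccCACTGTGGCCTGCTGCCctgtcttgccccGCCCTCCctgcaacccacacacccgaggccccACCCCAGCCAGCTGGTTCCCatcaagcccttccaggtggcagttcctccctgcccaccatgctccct
Fli1 region: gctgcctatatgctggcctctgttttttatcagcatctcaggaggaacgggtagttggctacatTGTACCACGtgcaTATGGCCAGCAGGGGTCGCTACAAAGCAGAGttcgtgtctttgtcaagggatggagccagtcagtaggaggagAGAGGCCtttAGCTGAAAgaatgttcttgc
Ebf1 region: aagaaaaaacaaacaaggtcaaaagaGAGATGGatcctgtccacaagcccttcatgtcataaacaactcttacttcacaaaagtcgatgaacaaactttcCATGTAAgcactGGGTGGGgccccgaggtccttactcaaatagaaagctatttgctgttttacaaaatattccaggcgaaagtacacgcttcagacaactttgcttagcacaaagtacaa

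The last sequence is the member with the highest ratio of replicate 2 to replicate 1. The region, nearest to Psd3, lies at chr8:68233121-68233300 between genes, and one of its capital stretches covers a CTCF match.
Psd3 region: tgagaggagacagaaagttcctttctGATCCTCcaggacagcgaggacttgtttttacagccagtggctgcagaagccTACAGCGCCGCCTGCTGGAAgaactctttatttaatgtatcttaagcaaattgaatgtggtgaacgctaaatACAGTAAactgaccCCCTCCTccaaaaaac

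Footprint counts in the members reached 10 in each library. Of the 1814 regions, 1343 had a lower count of 4, 376 of 5, 68 of 6 and 27 of 7 or more. The counts were equal in 793 regions, higher in replicate 1 in 488 and higher in replicate 2 in 533. Peaks of this kind were a small part of the distal narrow peaks, which numbered 57674 in replicate 1 and 80591 in replicate 2. Of these, 5333 and 8085 had 4 or more footprints in their own library. No footprint was found in 23.7% of them in replicate 1 and 24.0% in replicate 2, and a single one in 29.6% and 27.5%.

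A high count in one library returned only in part in the other. Of the peaks with 4 or more footprints in replicate 1, 34.1% overlapped a distal narrow peak of replicate 2 that also had 4 or more. In the other direction the share was 22.4%. The share rose with the count in the library of choice: it was 3.06% for peaks with 0 footprints in replicate 1, 28.2% with 4, 40.7% with 5 and 55.4% with 6 or more. For peaks chosen in replicate 2 the same steps gave 0.989%, 17.2%, 29.5% and 44.3%. Median signal in the library of choice rose along with the count, from 0.452 to 2.34 in replicate 1 and from 0.389 to 2.32 in replicate 2, and its part in this return was not tested.

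**Figure D1:**
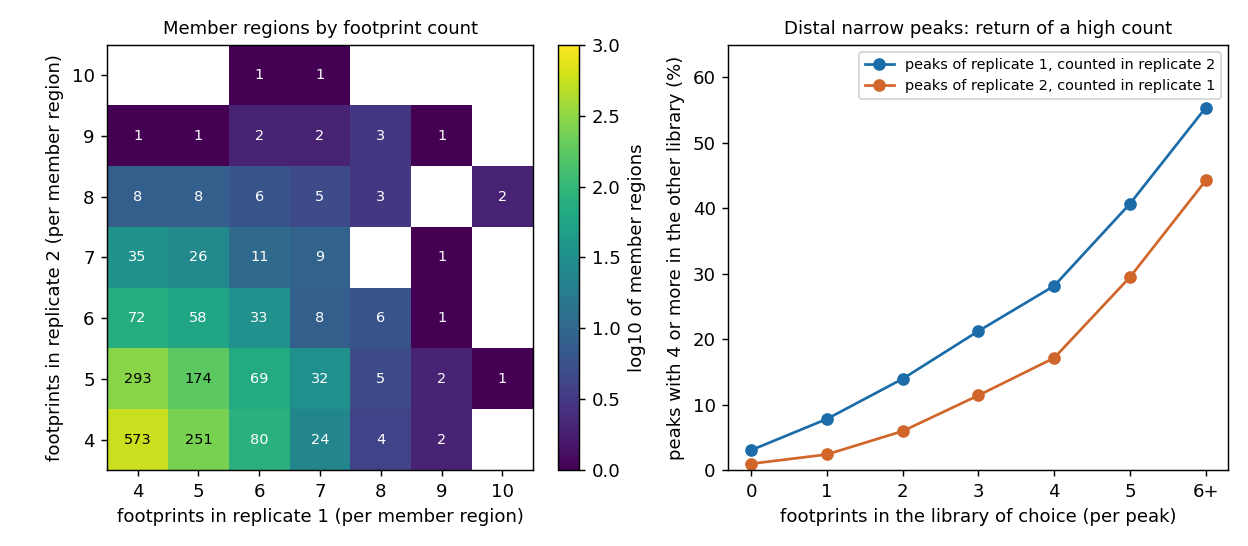
Left, the 1814 member regions by their footprint count in replicate 1 (x axis) and replicate 2 (y axis), with the number of regions printed in each cell and colour on a log10 scale. Right, the share of distal narrow peaks with 4 or more footprints in the other library (y axis, %) by the count in the library of choice (x axis), rising to 55.4% for replicate 1 and 44.3% for replicate 2 at 6 or more.

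Members were among the strongest distal peaks. Deposited peak signal is a scaled count, and the median member held 2.09 in replicate 1 and 2.49 in replicate 2, which correspond to 246 and 282 counts. Of the members, 72.7% in replicate 1 and 67.1% in replicate 2 lay in the highest of 5 equal groups of the shared distal narrow peaks by signal. For comparison, shared distal narrow peaks with 0 or 1 footprints in both libraries (10788 in replicate 1, 10790 in replicate 2), the sparse class, had a median signal of 0.537 and 0.574. Those with 2 or 3 footprints in both (10786 and 10789), the middle class, had 1.03 and 1.33. Around the threshold the signal stepped gradually: overlapping pairs whose lower count was 3 had medians of 1.42 and 1.84, and pairs whose lower count was 4 had 1.91 and 2.35. Within 20 bp below the width limit 72 pairs had 2.11 and 1.82, and within 20 bp above it 55 pairs had 1.79 and 1.69. Up to 200 bp beyond the limit on TSS distance 55 pairs had 2.69 and 3.20, and up to 200 bp inside it 61 pairs had 2.92 and 3.61.

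Footprints within members were short and closely packed. Their median width was 10 bp in each library, their centres were 38 bp and 40 bp apart at the median, and they covered 24.2% and 28.3% of a member peak on average. In the middle class the spacing was 50 bp and 56 bp and the cover 14.9% and 17.9%. Averaged over members, a footprint lay over 41.3% ± 3.47 (SD, n = 2) of bases within 25 bp of the peak centre and over 26.2% ± 3.49 of bases 51 to 75 bp away. The middle class had 32.6% ± 4.53 and 11.01% ± 2.64. Members had side maxima on either side of the centre in both libraries. The middle class had lower ones in replicate 2 and shoulders in replicate 1.

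**Figure D2:**
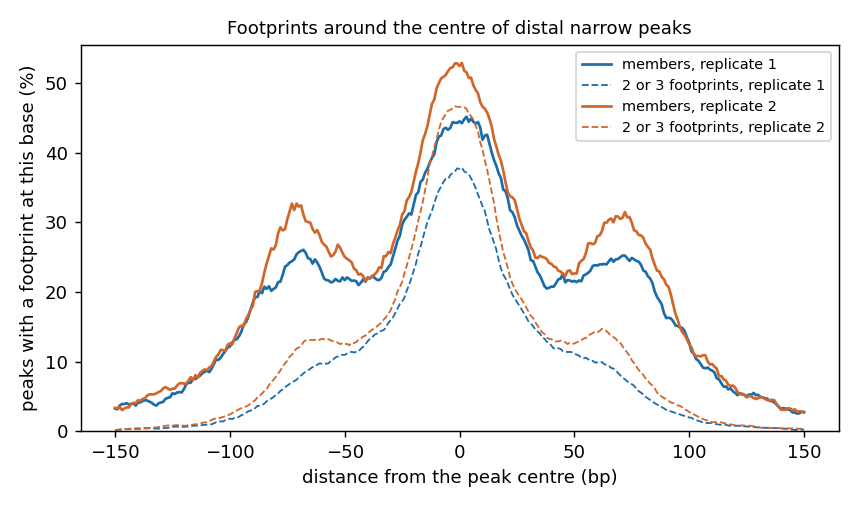
Share of peaks with a footprint at each base (y axis, %) against distance from the peak centre in bp (x axis), for members (solid lines) and peaks with 2 or 3 footprints (dashed lines) in each library. Between 51 and 75 bp from the centre, members averaged 23.7% in replicate 1 and 28.6% in replicate 2, against 9.14% and 12.9%.

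Footprints of members often recurred at the same place in the other library. Of 8567 footprints in members of replicate 1, 72.1% overlapped a footprint of replicate 2, and of 8624 in replicate 2, 67.4% overlapped one of replicate 1. The middle class had 62.3% and 55.5%, and the sparse class 31.9% and 28.3%. The mean for members was 69.7% ± 3.30 (SD, n = 2), and it was 48.2% ± 0.358 where the overlap had to cover 50% of both footprints. Members had to hold 4 or more footprints in both libraries and sparse peaks at most 1, so the choice of the classes bears on this order and nothing is read from it. For all distal narrow peaks with 4 or more footprints in 1 library, whatever the other held, recurrence was 53.9% from replicate 1 and 41.4% from replicate 2, below the middle class. At least 1 base lay in footprints of both libraries in 99.4% of the member regions.

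Members were richer in G and C, and above all in CpG, than the other classes. Mean GC content was 56.2% and 56.0% in the replicates, against 52.1% and 51.9% in the middle class and 51.8% and 51.4% in the sparse class. CpG dinucleotides are depleted from most of the mammalian genome through methylation and are kept in CpG islands. The ratio of observed to expected CpG averaged 0.426 ± 0.00197 (SD, n = 2) in members, 0.289 ± 0.000522 in the middle class and 0.273 ± 0.00120 in the sparse class. A ratio of 0.6 or more, called CpG-rich here, was found in 26.5% and 25.7% of the members, in 7.76% and 7.56% of the middle class and in 8.68% and 7.47% of the sparse class. Members of the libraries are the same regions, so the SD of a sequence measure shows only where the peak edges fell.

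Part of the difference in composition went with signal. Between the lower and upper quartile of the members' signal, the middle class held 3073 peaks in replicate 1 and 3648 in replicate 2, with a mean GC content of 54.4% and 52.6%. The difference to members, 4.12 percentage points for the whole middle class, was then 2.64 ± 1.09 (SD, n = 2). All members were kept in this and later comparisons at the members' signal, so signal was not equal. The median was 2.09 in replicate 1 and 2.49 in replicate 2 for members, against 1.77 and 2.22 for these middle-class peaks. The ratio of observed to expected CpG in these peaks was 0.317 and 0.311, below the members in each library. The sparse class had 365 and 336 peaks at this signal, with 55.3% and 52.4% GC and CpG ratios of 0.335 and 0.311. Their median signal was 1.62 and 1.91.

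The CpG-rich members were stronger than the rest. These 473 regions had a median signal of 3.73 in replicate 1 and 4.13 in replicate 2, against 1.82 and 2.10 in the 1341 other regions. They held a mean of 5.02 and 5.11 footprints, against 4.61 and 4.63. Of the CpG-rich regions, 34.9% lay within 1 kb of the TSS of some annotated transcript, which here are not the protein-coding starts that the rule leaves out, against 9.55% of the others. Over all members this share was 16.1% in replicate 1 and 16.2% in replicate 2, against 7.88% and 7.92% in the middle class and 7.93% and 8.0% in the sparse class.

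**Figure D3:**
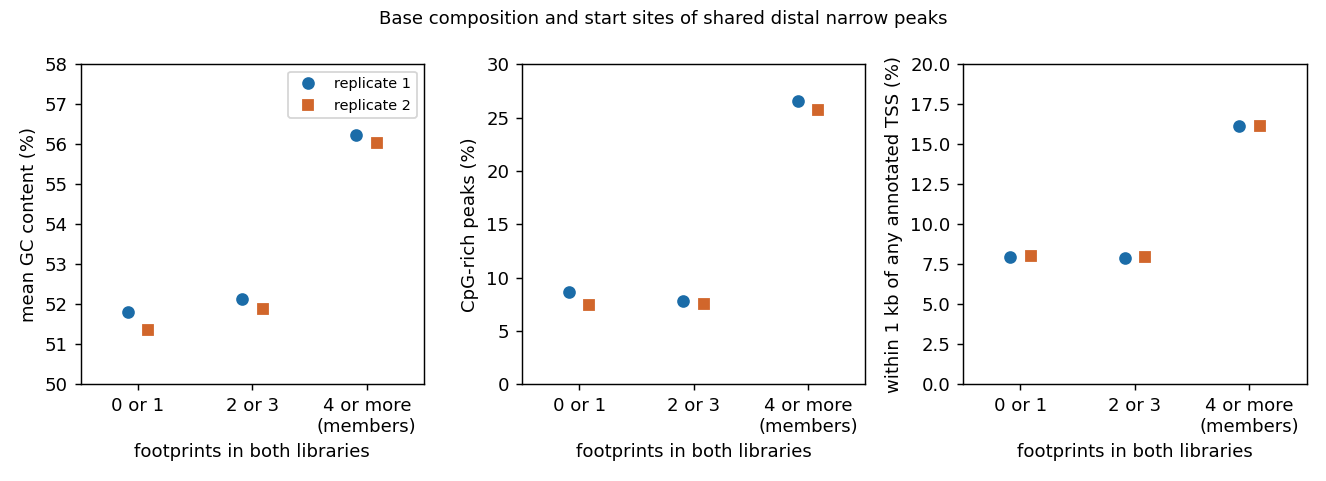
Mean GC content, share of CpG-rich peaks and share of peaks within 1 kb of any annotated TSS (y axes, %; the first does not start at 0) for shared distal narrow peaks by footprint class (x axis), with 1 point per library. In every panel members lie above both other classes, at 56.2% and 56.0%, 26.5% and 25.7%, and 16.1% and 16.2%.

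The members lay more often between protein-coding genes. A midpoint inside a non-coding gene alone counts as intergenic here. Of members, 56.7% in each library had an intergenic midpoint, 36.5% and 36.6% an intronic one and 6.83% and 6.73% an exonic one. The sparse class had 49.5% and 49.4%, 45.5% and 45.7%, and 5.04% and 4.88%. The median distance to the nearest protein-coding TSS was 19379 bp and 19408 bp in members, 22264 bp and 22260 bp in the middle class and 32854 bp and 32819 bp in the sparse class. Set against the shared distal narrow peaks of replicate 1, member regions ran from 3.08% on chromosome 3 to 4.77% on chromosome 7. Repeat-masked bases covered 50% or more of 1.32% of members in each library, against 3.49% and 3.31% of the sparse class.

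Sequence motifs were searched as exact consensus matches on both strands in the central 150 bp of each peak. A match describes the letters and shows no binding. The consensus forms overlap in part: TGACNNNGC of BACH-NRF2 can share bases with the AP-1 form, the KLF form CCACACCC with SP, and the nuclear receptor half-site AGGTCA lies inside the PPAR-RXR form. Of the 40 motifs searched, those of promoters led the ratio of members to the sparse class. NRF1 matches were in 2.51% ± 0.0370 (SD, n = 2) of members, 0.371% ± 0.0132 of the middle class, 0.134% ± 0.0196 of the sparse class and 0.374% ± 0.00137 of all shared distal narrow peaks. In replicate 1 that was 46 of 1816 members, with a 95% Wilson interval of 1.90% to 3.36%, against 13 of 10788 sparse peaks, with 0.0704% to 0.206%. The ratio of members to the sparse class, 18.9, was 8.93 with 3 or more footprints and 32.8 with 5 or more. With classes from a single library it was 9.70 in replicate 1 and 7.27 in replicate 2.

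The other leading motifs had smaller ratios. CREB, a factor that responds to cyclic AMP, had its consensus in 1.63% ± 0.0377 (SD, n = 2) of members, 0.241% ± 0.0262 of the sparse class and 0.403% ± 0.00621 of all shared distal narrow peaks. The SP consensus, the GC box bound by SP1 and its relatives, was in 14.6% ± 0.0276 of members, 4.67% ± 0.0271 of the middle class, 3.98% ± 0.0202 of the sparse class and 4.90% ± 0.0458 of all. The ETS consensus CCGGAAG was in 2.89% ± 0.115 of members, 1.27% ± 0.0260 of the middle class, 1.34% ± 0.0395 of the sparse class and 1.46% ± 0.0157 of all. These 4 consensus forms stood higher in members than in either other class in both libraries. The other ETS form searched, CAGGAAG, went the other way. It was in 8.21% ± 0.149 of members, 8.94% ± 0.110 of the middle class and 9.63% ± 0.126 of the sparse class. Among sparse peaks at the members' signal, CCGGAAG was in 2.74% in replicate 1 and 2.08% in replicate 2, against 2.97% and 2.81% of members. The RFX form was in 3 members of replicate 1, or 0.165%, with an interval of 0.0562% to 0.485% that overlaps the 0.0255% to 0.121% of the sparse class.

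The order of SP and NRF1 was kept when the middle class, but not the members, was limited to the members' signal. The middle-class peaks between the quartiles of the members' signal had an SP match in 6.70% and 4.99% of peaks and an NRF1 match in 0.553% and 0.411%. The members' shares were 2.56 ± 0.525 (SD, n = 2) times and 5.31 ± 1.03 times these. Member regions with an NRF1 match had a median signal of 4.54 and 5.05, above the members' upper quartiles of 3.36 and 3.93. Those with an SP match had 3.42 and 3.61, so a part of signal in these ratios was not removed. Composition goes with these motifs too, in part by definition. Both consensus forms hold CG, so a match itself adds CpG to the peak. Among members with an NRF1 match, 83.1% were CpG-rich, against 24.2% of those without, and among members with an SP match 54.3%, against 18.8%. In peaks that were not CpG-rich and lay over 1 kb from every annotated TSS, SP was in 7.39% ± 0.123 of members and 3.26% ± 0.0321 of the sparse class, NRF1 in 0.454% ± 0.0544 and 0.0379% ± 0.00732, and ETS in 1.40% ± 0.129 and 1.14% ± 0.0357.

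CTCF, the insulator protein whose long motif spans several zinc fingers, did not rise with the footprint count. Its matches were in 12.04% ± 0.126 (SD, n = 2) of members, 18.4% ± 0.108 of the middle class, 5.91% ± 0.0320 of the sparse class and 13.0% ± 0.113 of all shared distal narrow peaks. Members thus had 2.04 times the share of the sparse class and 0.655 times that of the middle class. At the members' signal the middle class had 19.5% in replicate 1 and 31.7% in replicate 2, and the members' share was 0.498 ± 0.163 times that. Sparse peaks at that signal had 8.49% in replicate 1, below the members' 11.9%, and 30.7% in replicate 2, above their 12.1%. Footprints of 25 bp or longer made up 7.33% and 11.8% of the footprints of members, against 7.51% and 15.5% in the middle class.

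GATA, FOX and AP-1 motifs were less frequent in members than in the sparse class, but not in every comparison. GATA matches (AGATAA) were in 4.79% ± 0.0817 (SD, n = 2) of members and 7.89% ± 0.00552 of sparse peaks, with 7.01% ± 0.0587 in all. FOX matches (TGTTTAC) were in 2.81% ± 0.0801 and 4.10% ± 0.176, with 3.47% ± 0.0411 in all. AP-1 matches (TGANTCA), of the FOS and JUN factors that open chromatin in epithelia and stroma, were in 13.5% ± 0.106 and 19.4% ± 0.0368, with 16.1% ± 0.0228 in the middle class and 17.0% ± 0.108 in all. Among the 365 and 336 sparse peaks at the members' signal, GATA was in 3.84% and 3.57% and FOX in 2.19% and 2.08%, below the members in both libraries, and AP-1 in 24.7% and 14.0%. Middle-class peaks at that signal had AP-1 in 17.0% in replicate 1, above the members' 13.6%, and in 11.1% in replicate 2, below their 13.5%. The HNF4-like form CAAAGTCCA was in 2 members of replicate 1 and the PPAR-RXR form in none of 1816, which allows a share of up to 0.165% for counting error alone and is above the 0.0278% of the sparse class.

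**Figure D4:**
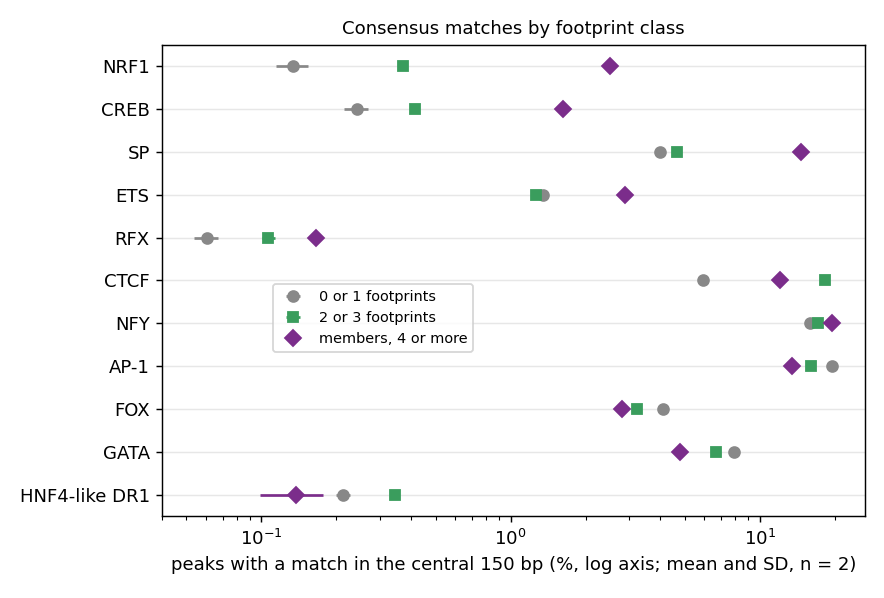
Share of peaks with a consensus match in the central 150 bp (x axis, %, log scale) for 11 motifs (y axis) in members, peaks with 2 or 3 footprints and peaks with 0 or 1, as the mean of 2 libraries with SD bars, which are mostly narrower than the symbols. NRF1, CREB, SP and ETS (the CCGGAAG form) are highest in members, CTCF is highest in the middle class at 18.4%, and AP-1, FOX and GATA are lowest in members.

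Matches in members fell inside footprints to very different degrees. With 5 bp added on each side, footprints covered 174.5 kb of member peaks in replicate 1 and 187 kb in replicate 2 and left 264 kb and 242 kb outside. Of NRF1 matches, 64 and 65 had their middle base inside a footprint and 3 and 2 outside. CREB had 34 and 33 inside and 1 and 2 outside, and CTCF 240 and 241 inside and 25 and 21 outside. Most matches to these 3 motifs in members thus lay in a footprint of the same library. Per kb, NRF1 matches were 37.1 ± 6.95 (SD, n = 2) times as dense inside as outside in members and 9.05 ± 1.13 times in the middle class. For CTCF the order was the other way, with 14.7 ± 0.246 times in members and 38.1 ± 12.8 times in the middle class.

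Other motifs were split. SP had 2.22 ± 0.0489 (SD, n = 2) matches per kb inside footprints and 0.433 ± 0.0799 outside, a ratio of 5.21 ± 0.850. AP-1 had a ratio of 1.33 ± 0.0595, NFY, a factor of the CCAAT box, 1.14 ± 0.0663, and GATA 1.01 ± 0.0301. FOX matches had a ratio of 0.380 ± 0.0111, that is, fewer per kb inside footprints than outside. GC content was 59.7% and 59.3% inside and 54.4% and 54.0% outside, and its part in these ratios was not tested.

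By gene, the members were spread thinly. They had 1538 different nearest protein-coding genes, 1322 of them nearest to a single member region and 46 to 3 or more. Irf2bp2, a transcriptional corepressor gene, Zfp217, a zinc finger gene, and Klrb1c, a receptor gene of natural killer cells, had 5 each. Irf2bp2 had 21 shared distal narrow peaks in replicate 1, Zfp217 had 23 and Klrb1c 9. The genes with 4 were 1700001O22Rik, Actg1, Dhrs3, Jarid2, Myc, Nfil3, Pde4d and Thap1. The 5 regions nearest to Irf2bp2 lay between 9295 bp and 142205 bp from its TSS, and the strongest had a signal of 7.86 in replicate 1 and 8.53 in replicate 2. All 5 regions nearest to Klrb1c shared an exact run of at least 50 bases with another member region, as did 36 member regions in all, so reads there may not map to 1 copy.

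The gene lists of the bladder's cell types took few members. Of 1814 regions, 7 were nearest to a urothelium gene (0.386%, against 0.377% ± 0.000143 (SD, n = 2) of all shared distal narrow peaks), 14 to a fibroblast gene (0.772% against 0.475% ± 0.00169), 3 to a smooth muscle gene (0.165% against 0.317% ± 0.000120) and 4 to an endothelium gene (0.221% against 0.172% ± 0.00145). Pericyte genes had 2 regions, both nearest to Notch3, mesothelium genes had 2, 1 of them the Upk3b region that the urothelium list also holds, the B and T cell list and the glia and neuron list 1 each, and macrophage, hepatocyte and skeletal muscle genes none. Nothing is called particular to a list from counts this small.

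The urothelium list included 1 of the 3 members with 10 footprints in replicate 1. It lies between genes at chr4:133599621-133599980, 2367 bp from the TSS of Sfn, which encodes stratifin, a 14-3-3 protein of epithelia. It held 10 footprints in replicate 1 and 8 in replicate 2, with a signal of 6.94 and 5.99, a GC content of 68.3% and both an AP-1 and an SP match. The Pparg region shown above held 5 and 4 footprints with a signal of 4.87 and 3.41, higher in replicate 1, and its single stretch of 18 capitals touches none of the searched motifs. The other 5 regions were nearest to Upk3b, Gata3, Trp63, Elf3 and Cdh1. These encode a uroplakin-family protein, 3 transcription factors of epithelia and the cadherin of epithelial junctions. Their signal ran from 1.58 to 3.71 in replicate 1 and from 1.52 to 4.50 in replicate 2, and that nearest to Gata3 lay 1149089 bp from its TSS.

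Among the wall's other lists, the Tpm2 region shown above held 4 and 5 footprints with a signal of 2.70 and 4.90, higher in replicate 2. The longest of its capital stretches covers an E-box of the form CAGCTG. The region of Pdlim7, a PDZ and LIM protein gene of the cytoskeleton, at chr13:55510701-55510940 in an intron, had 5 footprints in each library and a signal of 4.08 and 3.12. Ptch1, the hedgehog receptor gene, had a member in its own intron at chr13:63567821-63568180, with 6 and 5 footprints, a signal of 4.78 and 4.02 and 70.8% GC. This Ptch1 region lay 63 bp from a TSS of a transcript that is not protein-coding. The Col1a1 region had 5 footprints in each library and a signal of 3.97 and 3.46. Its capitals touch an SP match and a CAGCTG E-box. Collagen genes of types I, V, VI and XV took 7 of the 14 regions of the fibroblast list.

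In the endothelium list the Fli1 region had 4 footprints in each library and a signal of 2.23 and 4.13. A region in an intron of Vwf, which encodes von Willebrand factor, at chr6:125573301-125573540, had 4 and 5 footprints and a signal of 2.34 and 2.95. No peak midpoint lay within 1 kb of a protein-coding TSS of Vwf in either library. The Ebf1 region was weaker, at 1.02 and 0.831, with 4 footprints in each library. The Cdh5 region, near the gene of the endothelial cadherin, had 0.529 and 1.47, the largest ratio between the libraries in this list.

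The 6 members with the largest lower footprint count, ties going to the stronger, were all CpG-rich. The region with 9 in each library, at chr8:19784521-19784920, lay 15 bp from a TSS of a transcript that is not protein-coding and had a signal of 10.5 and 11.3. It is 1 of the regions that share an exact run with another member. The region nearest to Ptma, the prothymosin gene, at chr1:86487421-86487760, held 8 and 9 footprints with a signal of 10.4 and 9.53 and an NRF1 match. Regions over coding exons of Angptl6, at chr9:20878101-20878480, and Gas2l1, at chr11:5061901-5062160, held 8 and 9 footprints each, with a signal of 10.002 and 8.76 in the former and 7.95 and 8.87 in the latter. The Map1lc3b region followed the same pattern at 9.85 and 8.71. GC content in these 6 regions, with that of Sfn, ran from 60.4% to 70.0%.

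The strongest member was chosen after its values were seen. It lies at chr9:123461901-123462100 in an untranslated part of an exon of Lars2, a mitochondrial tRNA synthetase gene, with 4 footprints in each library, 49.0% GC, a CpG ratio of 0.836 and a signal of 24.1 and 34.8. The next strongest had 14.5 and 19.6.

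Signal was compared between the libraries in 1807 one-to-one pairs of member peaks as log2 of replicate 2 over replicate 1, centred on the median of all 68801 paired autosomal peaks, 0.14. The centred ratio of members had a median of 0.01 and an SD of 0.48 across pairs, a description across regions that are not independent. After centring, 295 members were over 1.5-fold higher in replicate 2, which is 16.3% of the pairs against a background of 15.2% of all paired peaks. Those over 1.5-fold lower were 102, or 5.64% against a background of 7.26%. Both shares lay near the background, and the SD over all paired peaks was 0.50. The share higher turned on the footprint cutoff: it was 22.4% with 3 or more footprints and 8.35% with 5 or more. Over the 46378 paired shared distal narrow peaks, members included, 20.6% were higher and 8.17% lower. Other shared distal narrow pairs whose mean log signal lay between the members' quartiles, 7953 in all, had 31.3% higher and 4.50% lower, with a median of 0.27.

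The members divided by motif in this ratio. Of 258 paired member regions with a CTCF match, 120 were over 1.5-fold higher in replicate 2 and 4 lower, with a median of 0.51 and an SD of 0.48. Members with an AP-1 match had 23 higher and 38 lower of 342, with a median of -0.19, and those with an SP match 14 and 21 of 369, with a median of -0.16. With matches counted in the central 150 bp, the median for CTCF was 0.64 in 217 member pairs and 0.67 in 5818 other shared distal narrow pairs. For AP-1 the values were -0.17 in 246 and -0.11 in 7673. For SP they were -0.14 in 265 and -0.06 in 2013, and for NFY -0.01 in 356 and 0.13 in 7395. The medians of members and other pairs thus had the same sign for CTCF, AP-1 and SP and opposite signs for NFY, with 1 library on each side and no test. Among the other pairs, 58.8% of those with a CTCF match were over 1.5-fold higher in replicate 2 and 0.602% lower, against 53.5% and 0.922% of members. With an AP-1 match it was 7.78% and 11.5% of the others, against 7.72% and 9.35% of members. With an SP match it was 8.84% and 7.35% of the others, against 4.15% and 5.28% of members.

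**Figure D5:**
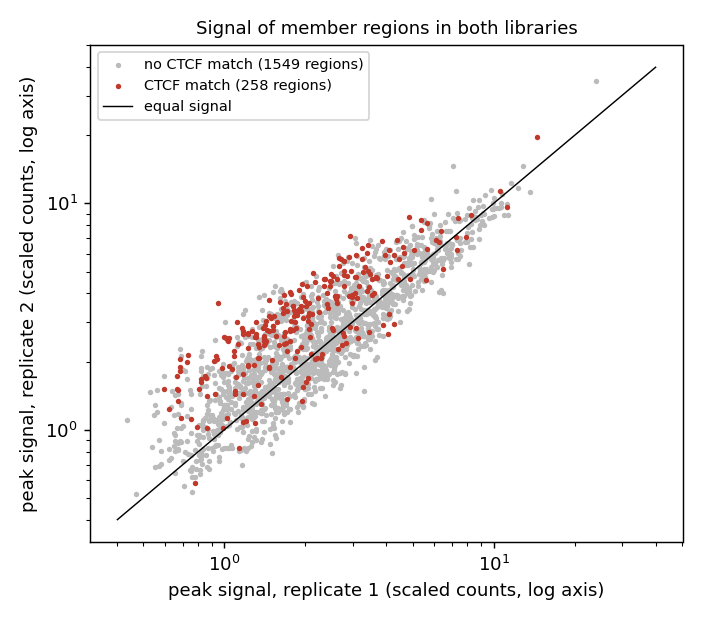
Peak signal of 1807 paired member regions in replicate 1 (x axis) and replicate 2 (y axis), as scaled counts on log axes, with 258 regions that hold a CTCF match in red, the others in grey and the line of equal signal. Red points lie mostly above the line, and 120 of them are over 1.5-fold higher in replicate 2 after centring.

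The extreme members of this ratio had signals on both sides of the members' medians, 2.09 in replicate 1 and 2.49 in replicate 2. The Psd3 region had 0.947 in replicate 1 and 3.62 in replicate 2, a centred difference of 3.46-fold, with 5 and 4 footprints. Regions nearest to Lhx9, at chr1:138752461-138752640, and in an intron of Nyap2, at chr1:81310221-81310400, followed at 3.0-fold and 2.77-fold higher in replicate 2, each with 4 footprints in both libraries. Neither of these held a CTCF match. At the other end, a region nearest to Ptgis, the prostacyclin synthase gene, at chr2:167263421-167263800, had 3.29 and 1.48, or 2.45-fold lower in replicate 2, with 6 and 7 footprints and an AP-1 match. A region nearest to Tmem125, at chr4:118547801-118548080, had 3.64 and 2.02 with 9 footprints in replicate 1 and 5 in replicate 2.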

How the data were processed

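DNase-seq libraries of 2 bladder samples were used as deposited, per library and with no pooling. The authors' peak lists give a signal per peak, and their footprint lists give a p-value column holding 0.01 throughout, which ranks no footprint. Divided by the library's own step, 0.00853 or 0.00884, the deposited signal came out whole (tolerance 0.02) in 100% of autosomal peaks. It was read as a scaled count, and total depth is unknown. The build is mm10 per the labels, and for the aligner and callers nothing is given in the sources used here. How footprints are called depends on cut depth, so stronger peaks can show more of them.

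The longer of the 2 deposited peak lists was used, on chromosomes 1 to 19. Start sites came from GENCODE M21 protein-coding transcripts, sequence and soft-masked repeats from RefSeq GRCm38.p6. Pairs for signal ratios had the largest mutual overlap and were called past 1.5-fold. Values are given per library or as mean and SD over 2 libraries. No p-value was computed. Members, the 11 gene lists with 213 entries, the 40 motifs and the rule for named genes were chosen with earlier results of these data known. Named were the 6 regions with the largest lower footprint count, the 2 strongest regions per cell list, the 3 highest and 3 lowest ratios, the 5 genes with most regions (ties included), and, by ratio of members to sparse peaks, the 6 highest motifs and the 4 lowest. A region among the lowest ratios is not reported here. Other named items were chosen after their values were seen. The counting code was tested on simulated data. Python 3.11.15 and numpy 2.4.6 were used. Wilson intervals and the limit that a count of 0 allows (3 counts) cover counting error only.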

Additional observations from a re-analysis of the deposited data

How the results depend on the processing

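Results were the number of member peaks per library (1815), the share of recurring footprints (69.7%), the GC difference to the sparse class (4.55 percentage points), the SP ratio to it (3.67), the difference in intergenic peaks (7.23 points), the difference in peaks nearest to a gene of the 5 wall lists (0.318 points) and the share of member pairs over 1.5-fold higher in replicate 2 (16.3%). The list difference rests on few regions and pools lists that went opposite ways, so nothing is read from it. Fibroblast genes had 0.772% of member regions against 0.491% of the sparse class, and smooth muscle genes 0.165% against 0.324%. The differences and the SP ratio kept their direction under every alternative below, while the pair share, above its background of 15.2%, fell below it with at least 5 footprints and without a width limit. With at least 3 footprints these were 6876, 65.9%, 2.47, 2.24, 4.96, 0.221 and 22.4%. With at least 5 they were 471, 72.5%, 7.41, 5.63, 9.77, 0.364 and 8.35%. Under 300 bp, recurrence was 73.0%, SP 3.93, intergenic 8.75, lists 0.429 and ratio 20.6%. Without a width limit they were 65.95%, 3.48, 7.91, 0.413 and 13.9%. Beyond 5 kb of a TSS, GC was 3.95, SP 3.36, intergenic 9.72 and lists 0.132. Peaks overlapping by 50% gave 7.31 and 0.408 for the last 2, footprint midpoints 6.90 and 0.333, and the shorter list GC 3.48, SP 2.96, 6.63 and 0.595. Footprint overlap of 50% gave 48.2%. No centring gave a pair share of 22.9%. The share over all paired peaks was not computed without centring, and the centred 15.2% is no background for it. Motif windows of 100 and 200 bp gave SP 3.76 and 3.84.

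Against the middle class GC was 4.12, SP 3.13, intergenic 7.48 and lists 0.355. Against the sparse class at the members' signal they were 2.28 ± 1.93, 3.62 ± 1.83, 7.64 ± 4.32 and 0.510 ± 0.0656 (SD, n = 2). The libraries thus lay far apart in GC, SP and intergenic share. Alternatives added after seeing the data were the middle class at that signal (2.64, 2.56, 5.98, 0.438) and over 1 kb from every annotated TSS (3.82, 3.20, 6.95, 0.389, ratio 18.3%). In comparisons at the members' signal only the sparse or middle class was limited, and all members were kept. In a single library (without replicate 1 or without replicate 2) the ranges were 5333 to 8085 peaks, 41.4% to 53.9%, GC 1.91 to 2.39, SP 2.16 to 2.55, intergenic 3.59 to 4.53 and lists 0.219 to 0.442, and the pair ratio has no value there. The causes were not tested.

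The CTCF ratio, 2.04 against the sparse class, reversed to 0.655 against the middle class and 0.498 against middle peaks at the members' signal. Against sparse peaks at that signal its mean was 0.901 ± 0.715 (SD, n = 2), and the libraries went opposite ways. CTCF was in 8.49% of those peaks in replicate 1, below the members' 11.9%, and in 30.7% in replicate 2, above their 12.1%. With classes from a single library the CTCF ratio was 1.18 to 2.71. AP-1, at 0.696, reversed to 1.01 ± 0.289 at the members' signal in the middle class, and ranged from 0.856 to 1.01 in a single library. Of 138 alternative values 31 were classed as unchanged. For peak counts this meant within 1.5-fold, and for the pair share inside its 95% Wilson interval, 14.7% to 18.1%. For the other results it meant a move of less than the spread between the libraries. That spread is small for sequence measures because both libraries share the regions. The NRF1 ratio to sparse peaks at the members' signal could not be given, since replicate 2 had no match there. No paired analysis was possible because there is 1 group.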
